A study of Homo sapiens with 78 samples.

Results

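The response of A549 cells to interleukin-1β (IL-1β) was compared between 2 h and 1 h of treatment, gene by gene. The value examined is the difference between 2 log2 changes, IL-1β against not stimulated (NS) cells at 2 h minus IL-1β against NS cells at 1 h. A positive value marks mRNAs whose response rose between these times (a second wave). A negative value marks a response that fell. It covers mRNAs raised at 1 h that then declined (a first wave) and mRNAs newly lowered at 2 h. The comparison uses 16 of the 78 libraries of the study, 4 each from IL-1β at 2 h, NS at 2 h, IL-1β at 1 h and NS at 1 h, and covers the 13327 of 19652 listed genes that reached 1 TPM (transcript abundance scaled for transcript length and library total) in at least 3 libraries. A549 is a human cell line established from a lung carcinoma and is used as a model of airway epithelium. IL-1β was given at 1 ng/ml to cells held without serum, and the NS cells were harvested beside them at each time. The other libraries come from cells given the glucocorticoid budesonide at 300 nM, alone or with IL-1β, and from later times. The labels give only a replicate number, and the study's methods name 4 independent experiments. All used 1 cell line, so the spread between libraries is that between cultures of the same line.

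IL-1β binds its receptor on the cell surface, which recruits the adaptor MYD88 and the kinases IRAK4 and IRAK1. Below them, the IκB kinases release nuclear factor κB (NF-κB) into the nucleus, and mitogen-activated protein kinases (MAPKs) activate factors such as the AP-1 proteins that are already present in the cell. The genes reached first, known as immediate early genes, need no new protein. Many of them encode transcription factors of short life (FOS, JUN, EGR1) or proteins that shut the pathway down (NFKBIA, which encodes IκBα, TNFAIP3, which encodes the ubiquitin editor A20, and the MAPK phosphatase DUSP1). Airway epithelial cells answer the same cytokine with chemokines, adhesion molecules and acute phase proteins. In bulk RNA from a cell line, more RNA per cell and more cells making an RNA cannot be told apart.

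The values of the 16 libraries summed to between 817304 and 893796 TPM, between 11986 and 12176 genes reached 1 TPM in each, and mitochondrially encoded genes took 13.4% to 16.0% of the sum. The rescaled values do not show depth, and the methods give only an approximate read number common to all samples, so the depth of a single library was not used. Epithelial markers summed to 6556 to 9158 TPM in IL-1β cells at 2 h, 7593 to 10514 TPM in NS cells at 2 h, 7279 to 9637 TPM in IL-1β cells at 1 h and 7519 to 10176 TPM in NS cells at 1 h, and 0 of 10 were called in the difference. Alveolar type II markers were nearly absent, with a sum of at most 13.7 TPM in any of the 16 libraries. Immune, fibroblast and endothelial markers summed to at most 17.3, 19.6 and 1.20 TPM per library, and of the 12 immune markers 4 were at 0 in all 16. None of the 9 tested markers of these 3 cell types was called. Of all genes tested, 1.70% were called upward and 0.488% downward in the difference, so 0 calls among so few markers is near the background.

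The difference was called for 226 genes upward and 65 downward, which is 1.70% and 0.488% of the genes tested. A call required an adjusted p of at most 0.05 (limma, Benjamini-Hochberg) and an absolute difference of at least 1 on the log2 scale. At 2 h IL-1β raised 376 genes and lowered 67 (2.82% and 0.503%), and at 1 h it raised 136 and lowered 1 (1.02% and 0.00750%). The 1 lowered gene was RGS2, which encodes a regulator of G-protein signaling. Of the 226 second-wave genes, 49 had already been raised at 1 h, 164 were raised at 2 h without a call at 1 h, and 13 were called at neither time. Of the 65 genes called downward, 22 had been raised at 1 h and are termed the first wave here. At 2 h, 7 of these 22 were still raised, 14 were no longer called and 1, GDF15, was lowered. A further 31 were not called at 1 h and were lowered at 2 h, and 12 were called at neither time. There were 57 genes raised at both times with no call in the difference. All 4 IL-1β libraries at 2 h lay above all 4 at 1 h for 226 of the 226 second-wave genes (11.0% of all genes tested), and below them for 62 of the 65 genes called downward (6.03% of all genes). The calls were made from these same values, so the counts are a description only. The 1 and 2 h responses of all genes are set against each other in the scatter plot of responses.

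**Figure D1:**
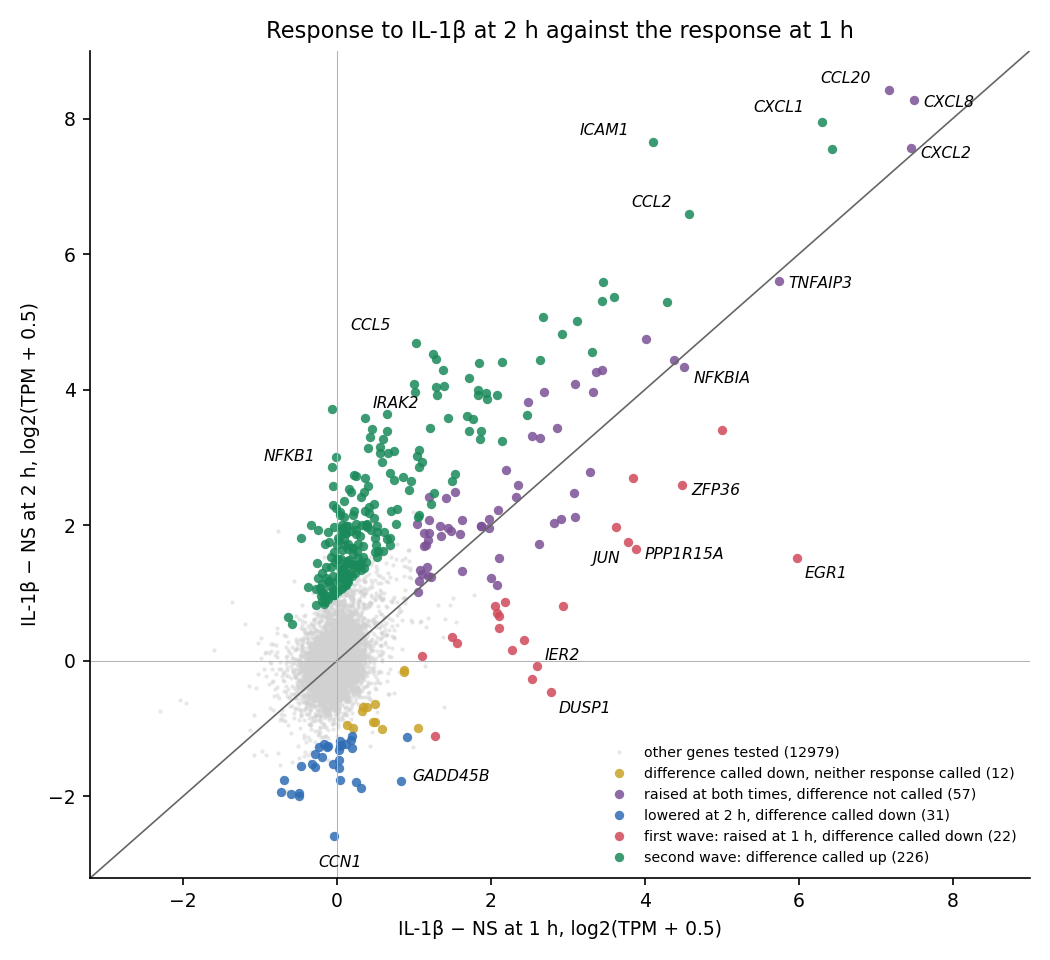
IL-1β minus NS at 2 h (vertical axis) against IL-1β minus NS at 1 h (horizontal axis), both as differences of log2(TPM + 0.5), for 13327 genes; the line marks equal responses. The 226 second-wave genes lie above the line, the 22 first-wave genes lie below it to the right, and NFKBIA, TNFAIP3 and CXCL2 lie close to it.

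By the medians of the genes called upward and downward, nearly all of the movement was in the IL-1β cells. Over the second wave the median difference of IL-1β at 2 h over IL-1β at 1 h was 1.52 on the log2 scale, against −0.03 in NS cells over the same hour. Over the 65 genes called downward the medians were −1.30 in IL-1β cells and 0.08 in NS cells. The 12 of these that were called at neither time had a larger share in NS cells, with medians of −0.86 in IL-1β cells and 0.33 in NS cells. Across all genes, 254 were higher and 63 lower in IL-1β at 2 h than in IL-1β at 1 h (1.91% and 0.473% of genes tested). In NS at 2 h, 1 gene was higher and 0 lower than in NS at 1 h by the same rule (0.00750% and 0%), with 18 genes at an adjusted p of at most 0.05 and 479 at an unadjusted p under 0.05 in limma. The 1 gene was CYP1B1, a cytochrome P450 enzyme, at 26.4, 50.0, 18.9 and 30.3 TPM in NS cells at 2 h and 13.6, 18.7, 10.1 and 10.5 TPM in NS cells at 1 h (log2 change 1.17 ± 0.25 SE, adjusted p = 0.0240). With the replicate number as a block 3 genes rose in NS cells, CYP1B1, BMF and CHAC1, and without NS at 2 h number 2, NS at 2 h number 4 or NS at 1 h number 4 the count was 0. Among the 291 called genes the NS cells moved at an adjusted p of at most 0.05 for 4, BHLHE40, BTG2, KLF2 and TIPARP, with changes of −0.78, 0.61, −0.99 and 0.86. KLF2, a Krüppel-like factor, averaged 3.45 TPM in IL-1β cells at 2 h, 3.96 in NS cells at 2 h, 15.7 in IL-1β cells at 1 h and 8.29 in NS cells at 1 h.

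Promoter sequence is shown for 5 genes that stand for the kinds of course described below: EGR1 and DUSP1 of the first wave, NFKB1 of the second wave, and NFKBIA and CXCL8, which were high at both times. Each is the RefSeq window of 250 bases before the start site on GRCh38.p14, written 5′ to 3′ along the gene's strand, with the matches found by the search in capitals. Positions count back from the start site, with −1 as the base before it. EGR1 lies on the plus strand at chr5:138465229-138465478 and holds 2 CArG boxes, the core of the serum response element, at −105 to −96 and −83 to −74.
EGR1: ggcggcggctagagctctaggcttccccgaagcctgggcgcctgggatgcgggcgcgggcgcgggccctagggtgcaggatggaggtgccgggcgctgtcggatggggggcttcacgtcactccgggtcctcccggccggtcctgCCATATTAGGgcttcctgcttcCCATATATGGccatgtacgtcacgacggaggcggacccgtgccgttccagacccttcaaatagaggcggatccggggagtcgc
DUSP1, on the minus strand at chr5:172771196-172771445, holds the cAMP response element TGACGTCA at −125 to −118 and the TATA box TATAAA at −30 to −25.
DUSP1: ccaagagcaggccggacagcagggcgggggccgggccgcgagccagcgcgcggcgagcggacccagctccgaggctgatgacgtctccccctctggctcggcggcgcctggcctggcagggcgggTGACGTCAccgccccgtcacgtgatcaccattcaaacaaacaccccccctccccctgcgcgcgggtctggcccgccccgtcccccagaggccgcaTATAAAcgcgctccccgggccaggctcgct
NFKB1, on the plus strand at chr4:102501109-102501358, holds an NF-κB motif at −49 to −40.
NFKB1: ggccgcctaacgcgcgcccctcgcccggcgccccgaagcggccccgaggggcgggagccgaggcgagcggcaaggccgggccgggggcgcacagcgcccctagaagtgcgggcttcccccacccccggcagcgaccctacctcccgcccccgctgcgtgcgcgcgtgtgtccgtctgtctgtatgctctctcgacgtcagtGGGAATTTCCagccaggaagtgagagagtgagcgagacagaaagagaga
NFKBIA, on the minus strand at chr14:35404750-35404999, holds an NF-κB motif at −81 to −72 and, read on the opposite strand, a TATA box at −33 to −28.
NFKBIA: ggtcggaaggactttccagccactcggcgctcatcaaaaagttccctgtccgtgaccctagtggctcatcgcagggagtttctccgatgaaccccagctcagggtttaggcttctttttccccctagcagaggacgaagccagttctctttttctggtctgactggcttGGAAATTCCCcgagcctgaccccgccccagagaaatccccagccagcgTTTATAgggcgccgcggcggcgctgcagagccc
CXCL8, on the plus strand at chr4:73740319-73740568, holds the AP-1 motif TGANTCA at −137 to −131 and a TATA box at −31 to −26.
CXCL8: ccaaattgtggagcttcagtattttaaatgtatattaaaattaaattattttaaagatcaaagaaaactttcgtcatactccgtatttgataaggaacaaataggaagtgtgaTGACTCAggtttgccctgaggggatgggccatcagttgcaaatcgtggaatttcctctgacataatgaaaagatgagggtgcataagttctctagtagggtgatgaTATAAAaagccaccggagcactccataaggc
All motifs were searched on both strands as letters. The NF-κB motif was searched as GGGRNNYYCC, where R is A or G, Y is C or T and N is any letter. The stretch tggaatttcc in the CXCL8 window departs from this pattern in its first letter and was therefore not marked. A missing mark does not mean that a site is absent. Among 35116 RefSeq windows of the same length 9.96% held the NF-κB motif, 1.16% a CArG box, 1.65% the cAMP response element, 6.57% the AP-1 motif and 10.7% the TATA box. A match is a description of the letters and not a bound site.

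Of the 22 first-wave genes, EGR1, a zinc finger transcription factor, had the largest fall. The AP-1 and ATF list and the EGR, NR4A, IER and other immediate early list each held 5 of the 22. List counts from here on are to be read beside the shares over all genes tested, 1.70% upward and 0.488% downward. EGR1 mRNA was at 2.72, 2.11, 2.31 and 1.80 TPM in IL-1β cells at 2 h and 0.371, 0.546, 0.585 and 0.317 TPM in NS cells at 2 h, against 72.0, 117, 104 and 117 TPM in IL-1β cells at 1 h and 0.696, 1.38, 1.15 and 1.31 TPM in NS cells at 1 h. No IL-1β library at 2 h came near any at 1 h, and the response was 1.52 at 2 h and 5.97 at 1 h on the log2 scale (difference −4.45 ± 0.28 SE, adjusted p = 2.24e-20, limma). EGR1 expression was nonetheless above NS in all 4 libraries at 2 h. FOS, an AP-1 subunit, was at 1.27, 2.51, 2.59 and 3.66 TPM in IL-1β cells at 2 h and 1.24, 3.46, 2.97 and 5.39 TPM in NS cells at 2 h, so that the 2 groups overlapped. At 1 h FOS was at 18.6, 37.0, 35.6 and 59.2 TPM in IL-1β cells and 2.89, 5.74, 5.54 and 10.1 TPM in NS cells (difference −2.80 ± 0.64 SE, adjusted p = 0.00166). In each of the 4 groups library number 1 was the lowest and number 4 the highest for FOS.

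All 5 AP-1 and ATF genes that were called among the 12 tested fell in the difference (FOS, FOSB, JUN, JUNB and ATF3), and the list had a median difference of −0.59 on the log2 scale, against 0.01 over all genes tested. They differed in what remained at 2 h. JUN was at 26.4, 25.2, 19.6 and 24.9 TPM in IL-1β cells and 6.77, 6.21, 6.04 and 8.18 TPM in NS cells at 2 h, and at 101, 105, 109 and 88.9 TPM in IL-1β cells and 5.85, 5.88, 6.49 and 9.91 TPM in NS cells at 1 h. It therefore stayed above NS in every library while losing most of its 1 h level (difference −2.03 ± 0.23 SE, adjusted p = 5.22e-10). JUNB had a response of 0.17 at 2 h and 2.28 at 1 h (difference −2.11, adjusted p = 3.90e-12), whereas FOSB kept 3.40 at 2 h of 5.00 at 1 h (difference −1.60, adjusted p = 0.000240). ATF3, a stress-induced factor of the same family, kept 2.70 of 3.85 (difference −1.15, adjusted p = 0.0152). The ATF3 call did not hold without NS at 2 h number 4 (difference −1.02, adjusted p = 0.0569), and that of FOSB did not hold with a pseudocount of 0.1 (difference −1.27, adjusted p = 0.217). FOSL1, a further subunit, had a difference of −0.79 (95% confidence interval −1.20 to −0.39, adjusted p = 0.00683), which is under the size required for a call.

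Among the 22 tested genes of the EGR, NR4A, IER and other immediate early list, 7 fell and 0 rose (EGR1, IER2, CSRNP1, BTG2, CCN1, CCN2 and TRIB1), with a median of −0.93. The orphan nuclear receptors NR4A1, NR4A2 and NR4A3, classed with the same list, had differences of −0.60, −0.97 and 0.44 that were not called. Krüppel-like factors fell in 2 of 10 (KLF2 and KLF10), beside 0.488% of all genes tested. KLF10, also known as TGF-β-inducible early gene, was at 13.5, 16.0, 26.4 and 24.2 TPM in IL-1β cells at 2 h, against 120.5, 113, 130.3 and 117 TPM in IL-1β cells at 1 h. The call of KLF2 (difference −1.02, adjusted p = 0.0225) rested on single libraries. Without one of 7 libraries in turn (NS at 1 h numbers 1 and 2, NS at 2 h numbers 1, 2 and 3, IL-1β at 2 h number 3 and IL-1β at 1 h number 4) it was not called, and the smallest size was −0.86 without IL-1β at 1 h number 4.

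A few regulators of signaling and of mRNA life also fell. DUSP1, which dephosphorylates MAPKs, was at 33.7, 28.5, 19.0 and 21.1 TPM in IL-1β cells at 2 h and 33.8, 35.2, 30.0 and 39.9 TPM in NS cells at 2 h, against 171, 235, 228 and 256 TPM in IL-1β cells at 1 h and 27.1, 29.1, 31.1 and 40.7 TPM in NS cells at 1 h. The response at 1 h was gone at 2 h, when 3 of the 4 IL-1β libraries lay below all NS libraries (difference −3.24 ± 0.17 SE, adjusted p = 1.43e-23). Of 15 tested MAPK phosphatases and Sprouty proteins, DUSP1, DUSP8 and SPRY2 fell and SPRY4 rose. Among all genes tested 0.488% fell and 1.70% rose. The rise of SPRY4 (1.08) was not called without NS at 1 h number 2, NS at 1 h number 3 or IL-1β at 1 h number 4, where it was 0.96, 0.97 and 0.96. ZFP36 (tristetraprolin), which destabilizes mRNAs with AU-rich elements, stayed raised. It was at 79.9, 66.4, 61.5 and 64.0 TPM in IL-1β cells at 2 h and at most 15.2 TPM in NS cells at 2 h, and at 239, 256, 294 and 303 TPM in IL-1β cells at 1 h and at most 18.0 TPM in NS cells at 1 h (difference −1.89 ± 0.31 SE, adjusted p = 6.37e-06). Of the 9 tested mRNA-destabilizing proteins, ZFP36 and TOB1 fell and ZC3H12C rose. Among stress and growth arrest genes, PPP1R15A and GADD45B fell and ARRDC3 rose of 18 tested. PPP1R15A, which directs a phosphatase to the translation factor eIF2α, was at 46.0, 45.7, 50.5 and 48.9 TPM in IL-1β cells at 2 h, against 253, 268, 289 and 221 TPM in IL-1β cells at 1 h, and at 14.5 to 17.5 TPM in the 8 NS libraries (difference −2.23 ± 0.11 SE, adjusted p = 7.99e-25). Of the growth factors only GDF15 was called among 15 tested, with a response of −1.10 at 2 h and 1.27 at 1 h.

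**Figure D2:**
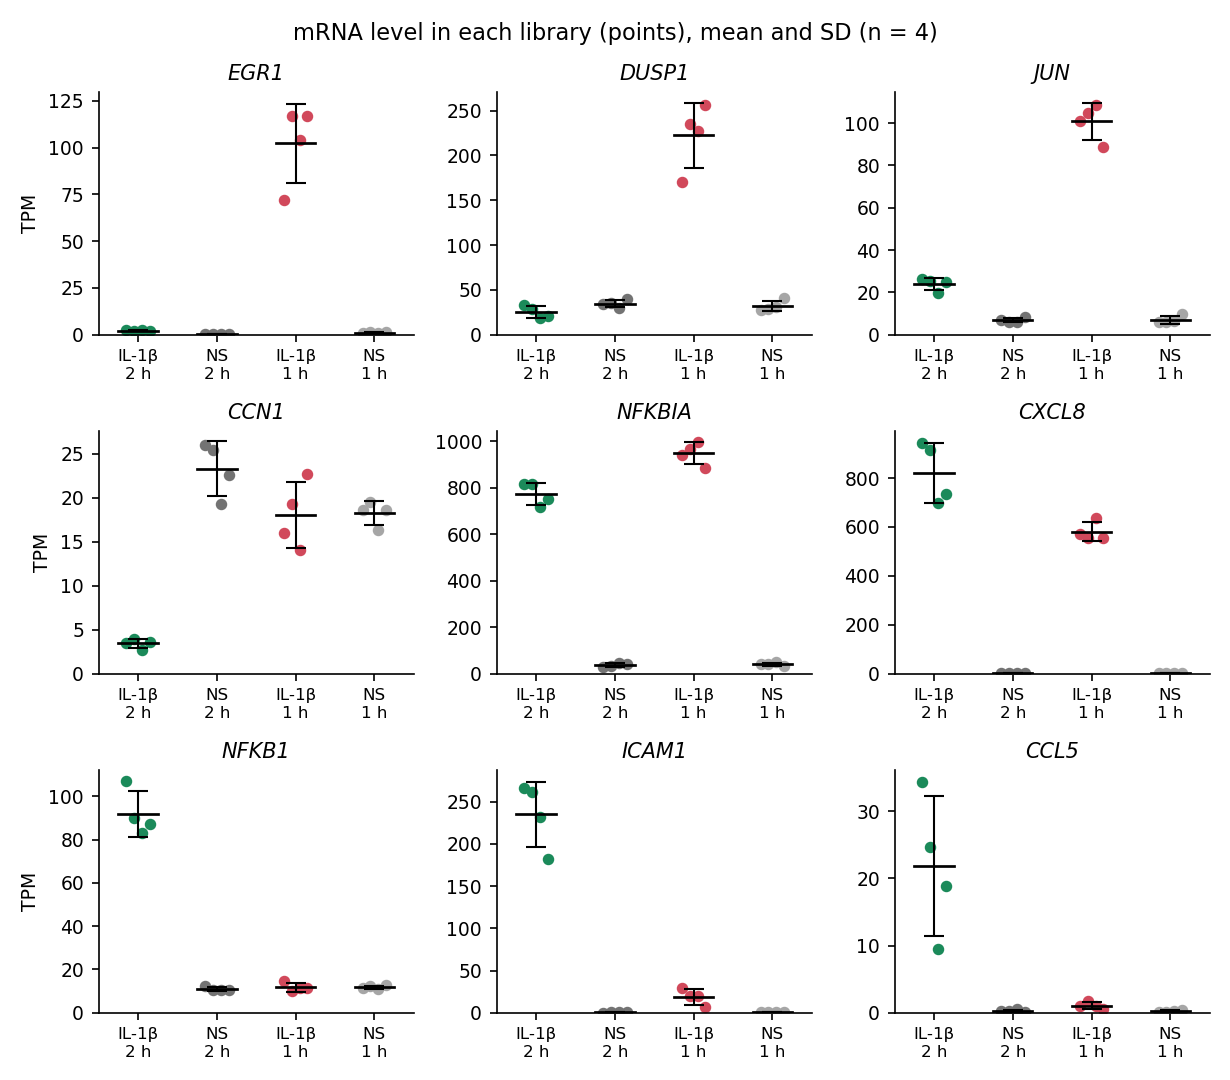
mRNA level in TPM of 9 genes in each library (points) with the mean (bar) and SD (whiskers), n = 4, for IL-1β at 2 h, NS at 2 h, IL-1β at 1 h and NS at 1 h. EGR1, DUSP1 and JUN are highest in IL-1β cells at 1 h, CCN1 is lowest in IL-1β cells at 2 h, NFKBIA and CXCL8 are high in IL-1β cells at both times, and NFKB1, ICAM1 and CCL5 are high in IL-1β cells at 2 h.

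A group of mRNAs without a call at 1 h was lowered by IL-1β at 2 h. CCN1 (CYR61), a matricellular protein, was at 3.55, 3.96, 2.71 and 3.64 TPM in IL-1β cells at 2 h and 26.0, 25.4, 19.3 and 22.7 TPM in NS cells at 2 h. At 1 h it was at 16.0, 19.3, 14.1 and 22.7 TPM in IL-1β cells and 18.7, 19.5, 16.3 and 18.7 TPM in NS cells, which overlapped (difference −2.55 ± 0.24 SE, adjusted p = 3.71e-13). CCN2 (CTGF), of the same family, had a response of −1.76 at 2 h and 0.04 at 1 h. HES1, a repressor and Notch target, was at 0.733, 0.706, 1.60 and 1.41 TPM in IL-1β cells at 2 h and 4.13, 4.82, 6.46 and 5.89 TPM in NS cells at 2 h (difference −2.20 ± 0.27 SE, adjusted p = 2.46e-09). Of 12 tested HES, ID and SMAD regulators, 4 fell (HES1, ID1, ID3 and SMAD7) and 0 rose. ID1 and ID3 inhibit basic helix-loop-helix factors and SMAD7 inhibits TGF-β signaling. The fall of ID1 (−1.20) was −0.99 without IL-1β at 2 h number 1 and was then not called. DKK1, a secreted inhibitor of Wnt signaling, was at 98.5, 118, 210.3 and 117 TPM in IL-1β cells at 2 h, against 502, 473, 594 and 508 TPM in NS cells at 2 h. RNF43, a ubiquitin ligase that removes Wnt receptors, had a response of −1.79 at 2 h and 0.24 at 1 h, and AMOTL2, a regulator of YAP, one of −1.12 at 2 h and 0.92 at 1 h. GADD45B was also in this group, with 5.55, 5.80, 8.32 and 15.1 TPM in IL-1β cells at 2 h and 24.2, 31.9, 23.4 and 36.5 TPM in NS cells at 2 h, after a response at 1 h of 0.83 that was under the size required for a call.

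Among the feedback inhibitors of NF-κB, NFKBIA, TNFAIP3 and NFKBIZ were high at both times. NFKBIA was at 814, 814, 718 and 753 TPM in IL-1β cells at 2 h and 30.8, 34.0, 45.6 and 42.3 TPM in NS cells at 2 h, against 942, 969, 996 and 887 TPM in IL-1β cells at 1 h and 40.8, 40.8, 49.3 and 34.5 TPM in NS cells at 1 h. The IL-1β libraries at 2 h lay below those at 1 h without overlap, but the responses of 4.34 at 2 h and 4.51 at 1 h differed by −0.17 (95% confidence interval −0.47 to 0.13, adjusted p = 0.827). TNFAIP3 averaged 126 ± 7.95 TPM in IL-1β cells at 2 h and 168 ± 27.2 TPM in IL-1β cells at 1 h (SD, n = 4 each), with responses of 5.60 at 2 h and 5.74 at 1 h (difference −0.14, interval −0.79 to 0.52). NFKBIZ, an IκB protein of the nucleus, differed by 0.05 (interval −0.62 to 0.72). Of the 17 tested inhibitors, 10 were raised at 2 h and 7 at 1 h. TNIP1, CYLD and TNFAIP8 were the 3 that rose in the difference and 0 fell. TNIP1, a partner of A20, was at 195, 204, 183 and 174 TPM in IL-1β cells at 2 h, against 44.8, 46.1, 43.5 and 38.2 TPM in IL-1β cells at 1 h (difference 2.02 ± 0.13 SE, adjusted p = 9.19e-20). Its response at 1 h was 0.09, so that the partner rose later than TNFAIP3 itself.

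The second wave held 4 of the 5 NF-κB subunit genes. NFKB1, which encodes p105 and its product p50, was at 107, 89.9, 83.1 and 87.2 TPM in IL-1β cells at 2 h and 12.5, 10.6, 10.6 and 10.3 TPM in NS cells at 2 h, against 14.8, 9.89, 11.4 and 11.4 TPM in IL-1β cells at 1 h and 11.5, 12.2, 10.9 and 12.6 TPM in NS cells at 1 h. At 1 h the IL-1β and NS libraries overlapped, and at 2 h they were far apart (difference 3.01 ± 0.22 SE, adjusted p = 4.42e-17). RELB, REL and NFKB2 rose by 2.36, 1.86 and 1.52 in the difference. Of these, NFKB2 had a response at 1 h of 1.88, and RELB one of 0.74. RELA, which encodes the p65 subunit, was at 63.3, 55.2, 66.7 and 46.1 TPM in IL-1β cells at 2 h and 33.5, 46.1, 42.9 and 43.2 TPM in IL-1β cells at 1 h, and its difference of 0.72 (interval 0.26 to 1.19, adjusted p = 0.0562) was not called.

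Of 24 tested adaptors and kinases of the pathway, 10 rose, 14 were not called and 0 fell (IRAK2, TRAF1, BIRC3, BIRC2, IKBKE, TIFA, TANK, MAP3K8, RIPK2 and CFLAR), with a list median of 0.52. Over all genes tested 1.70% rose and 0.488% fell. IRAK2, a kinase that sustains signaling from the IL-1 receptor, was at 72.3, 76.3, 78.2 and 67.2 TPM in IL-1β cells at 2 h and 4.86, 5.48, 7.17 and 5.35 TPM in NS cells at 2 h, against 6.51, 6.04, 5.70 and 4.84 TPM in IL-1β cells at 1 h and 4.38, 4.45, 4.70 and 3.83 TPM in NS cells at 1 h (difference 3.22 ± 0.15 SE, adjusted p = 6.75e-27). The IL-1β libraries at 2 h stood far above all others, while the 1 h libraries of both treatments lay next to each other. BIRC3 and BIRC2 encode the ubiquitin ligases cIAP2 and cIAP1. BIRC3 was at 403, 346, 249.5 and 277 TPM in IL-1β cells at 2 h and 110.1, 74.1, 64.0 and 60.3 TPM in IL-1β cells at 1 h (response 4.82 at 2 h and 2.92 at 1 h, adjusted p of the difference = 7.05e-09). BIRC2 was at 110.4, 113, 78.9 and 87.7 TPM in IL-1β cells at 2 h and 39.7, 31.1, 33.3 and 27.4 TPM in IL-1β cells at 1 h, with a response at 1 h of 0.39 that was not called (difference 1.63, adjusted p = 2.78e-10). Among BCL2 family genes, BCL2A1, an antiapoptotic member, rose by 1.77 and BMF, a proapoptotic member, fell by 1.09 of 13 tested. The BMF call (adjusted p = 0.0464) was lost without any one of 9 of the 16 libraries, with values of −0.78 to −1.12.

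The 5 genes with the largest responses at 1 h were all chemokines (CXCL8, CXCL2, CCL20, CXCL3 and CXCL1), and they differed in how far they grew. At 2 h CCL20, CXCL8 and CXCL1 had the 3 largest responses. Of 6 tested chemokines that attract neutrophils, 5 were raised at 1 h and 6 at 2 h, and CXCL1, CXCL3, CXCL5 and CXCL6 rose in the difference. CXCL1 was at 1108, 1104, 1034 and 916 TPM in IL-1β cells at 2 h and 469, 406, 452 and 337 TPM in IL-1β cells at 1 h, with at most 6.97 TPM in the 8 NS libraries (difference 1.63 ± 0.24 SE, adjusted p = 5.96e-07). CXCL2 was at 706, 639, 505 and 493 TPM in IL-1β cells at 2 h and 705, 742, 773 and 667 TPM in IL-1β cells at 1 h, which overlapped (difference 0.11, interval −0.38 to 0.61, adjusted p = 0.977). CXCL8 lay between these 2. It was at 942, 913, 697 and 736 TPM in IL-1β cells at 2 h and 571, 556, 637 and 557 TPM in IL-1β cells at 1 h, without overlap, but its difference of 0.77 (interval 0.14 to 1.39, adjusted p = 0.206) was not called. CXCL1, CXCL2 and CXCL3 are close in sequence, and reads shared between them may have been split by the quantification. The call of CXCL3 (1.13) did not hold without NS at 1 h number 3 (0.93).

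Of 9 tested chemokines that attract monocytes and lymphocytes, 5 rose (CCL2, CCL5, CCL22, CX3CL1 and CXCL10) and 0 fell, with a median of 1.25. CCL2, the monocyte attractant MCP-1, was at 1674, 1486, 1178 and 1319 TPM in IL-1β cells at 2 h and 14.9, 15.2, 8.75 and 19.6 TPM in NS cells at 2 h, against 397, 374, 274 and 306 TPM in IL-1β cells at 1 h and 13.0, 15.0, 11.2 and 15.4 TPM in NS cells at 1 h (difference 2.02 ± 0.23 SE, adjusted p = 2.94e-10). CCL5 (RANTES) was at 34.4, 24.6, 9.53 and 18.9 TPM in IL-1β cells at 2 h and 0.996, 1.74, 0.935 and 0.567 TPM in IL-1β cells at 1 h, with at most 0.490 TPM in NS cells (difference 3.66 ± 0.40 SE, adjusted p = 1.43e-10). Even the lowest CCL5 library at 2 h lay far above the highest at 1 h. CCL20, which attracts cells with the receptor CCR6, was at 467, 474, 484 and 608 TPM in IL-1β cells at 2 h and 181, 166, 219 and 223 TPM in IL-1β cells at 1 h. Its difference of 1.25 (interval 0.32 to 2.18) had an adjusted p of 0.139 and was not called, although it was called with the replicate number as a block (adjusted p = 0.0105).

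Cytokines and colony-stimulating factors rose in 9 of 21 tested and fell in 1, IL11, with a median of 0.73. The shares over all genes were 1.70% and 0.488%. CSF2 (GM-CSF) was at 37.6, 28.7, 12.8 and 22.4 TPM in IL-1β cells at 2 h and 8.59, 5.13, 3.90 and 4.68 TPM in IL-1β cells at 1 h, and was listed at 0 in 6 of the 8 NS libraries (difference 2.13, adjusted p = 3.34e-08). CSF1 and CSF3, growth factors of macrophages and neutrophils, rose by 2.46 and 2.99 and lymphotoxin β (LTB) by 3.17. The mRNA of the cytokine itself, IL1B, was at 9.21, 6.84, 7.29 and 12.1 TPM in IL-1β cells at 2 h and 0.358, 0.559, 1.33 and 0.616 TPM in IL-1β cells at 1 h (difference 2.95 ± 0.31 SE, adjusted p = 2.27e-11). IL6 was low at both times, at 3.11, 4.65, 4.74 and 0.976 TPM in IL-1β cells at 2 h and 3.82, 5.79, 8.43 and 2.39 TPM in IL-1β cells at 1 h, which overlapped (difference −0.49, interval −1.19 to 0.21, adjusted p = 0.704). LIF, of the IL-6 family, had a difference of 0.44 (interval 0.01 to 0.86, adjusted p = 0.365).

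Among adhesion, protease and matrix genes 8 of 23 tested rose and 0 fell, beside 1.70% and 0.488% of all genes. ICAM1, which binds leukocyte integrins, was at 267, 261, 231 and 182 TPM in IL-1β cells at 2 h and 0.280, 0.883, 1.10 and 0.547 TPM in NS cells at 2 h, against 29.3, 19.6, 19.4 and 6.32 TPM in IL-1β cells at 1 h and 0.332, 0.457, 0.633 and 0.539 TPM in NS cells at 1 h. It was thus raised at both times, and the lowest 2 h library lay far above the highest 1 h library (difference 3.55 ± 0.37 SE, adjusted p = 2.53e-11). ICAM1 lies on the plus strand at chr19:10271120-10286615 in GRCh38, and ICAM4 (chr19:10286955-10288520) and ICAM5 (chr19:10289952-10296778) follow it on the same strand. Both rose as well, by 2.67 and 2.13 in the difference. ICAM4, a red cell antigen, was at 10.7, 8.97, 8.82 and 6.04 TPM in IL-1β cells at 2 h and 1.46, 1.10, 1.21 and 0.367 TPM in IL-1β cells at 1 h. Whether reads that run on past the end of ICAM1 add to these values was not tested. VCAM1, SELE (E-selectin), PLAT, ITGB8 and LAMB3 were the other members that rose.

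Of 25 tested acute phase, complement and prostanoid genes, 9 rose and 0 fell (SAA1, SAA2, SERPINA3, LCN2, PTX3, CFB, SOD2, TNFAIP2 and TNFAIP6). SAA1 and SAA2 are near-identical, and their split is uncertain. TNFAIP2 had the highest level of the named genes, at 2903, 2758, 2359.6 and 2258 TPM in IL-1β cells at 2 h and 866, 683, 719 and 481 TPM in IL-1β cells at 1 h (difference 2.01 ± 0.18 SE, adjusted p = 1.79e-13). SOD2, the superoxide dismutase of mitochondria, was at 678, 644, 635 and 585 TPM in IL-1β cells at 2 h and 195, 129, 204 and 144 TPM in IL-1β cells at 1 h (difference 1.91, adjusted p = 1.11e-06). PTGS2, the inducible cyclooxygenase, was raised at both times, by 4.27 at 2 h and 3.37 at 1 h, and its difference of 0.90 (interval 0.03 to 1.77, adjusted p = 0.360) was not called.

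Receptors, second-tier transcription factors and interferon-stimulated genes gave fewer calls, beside shares of 1.70% upward and 0.488% downward over all genes tested. Of 24 tested cytokine and death receptors, 6 rose and 0 fell. They included both chains of the interferon-γ receptor. IFNGR1 was at 103, 101, 95.9 and 103 TPM in IL-1β cells at 2 h and 38.1, 34.9, 37.2 and 40.9 TPM in IL-1β cells at 1 h (difference 1.48, adjusted p = 4.76e-10), and IFNGR2 rose by 1.62. CD40 and TNFRSF9 (4-1BB), receptors of the TNF receptor family, rose by 1.77 and 2.76. Of 27 tested second-tier factors, IRF1, STAT5A, ETS1, HIVEP1 and HIVEP2 rose and BHLHE40 fell. IRF1, a factor of interferon-stimulated genes, was at 382, 389, 380.0 and 413 TPM in IL-1β cells at 2 h and 254, 207, 218 and 156 TPM in IL-1β cells at 1 h, and was strongly raised at both times, by 5.29 at 2 h and 4.28 at 1 h. Its difference of 1.01 (adjusted p = 8.82e-05) was at the size required for a call and fell under it (0.88 to 1.00) without 7 of the 16 libraries in turn (NS at 2 h numbers 1 and 2, NS at 1 h numbers 2, 3 and 4, IL-1β at 2 h number 4 and IL-1β at 1 h number 4). Interferon-stimulated genes rose in 6 of 37 tested (IFIH1, GBP1, GBP2, GBP3, TAP1 and HLA-B), with 0 raised at 1 h, and the list median was 0.27. Most of this list responded later. At 6 h IL-1β raised 36 of the 37, against 5.21% of all genes tested, with a median response of 3.26. The guanylate-binding proteins GBP1, GBP2 and GBP3 and HLA-B have close paralogs. GBP3 (1.29, adjusted p = 0.0292) was the least certain of them, since it was not called without NS at 2 h number 3 (1.02) or without 7 other libraries in turn.

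Several second-wave genes outside the lists had large differences. ADORA2A, an adenosine receptor, had the largest of those reaching 5 TPM, at 15.3, 11.4, 12.1 and 10.6 TPM in IL-1β cells at 2 h and 0.889, 0.733, 0.821 and 0.351 TPM in IL-1β cells at 1 h, where NS cells had 0.921, 1.22, 0.413 and 0.541 TPM (difference 3.78 ± 0.29 SE, adjusted p = 8.89e-17). The 1 h libraries of the 2 treatments overlapped. G0S2, an inhibitor of triglyceride lipase, rose by 3.28, the ubiquitin-like UBD (FAT10) by 3.08, the vitamin D receptor VDR by 2.92, C15orf48, a mitochondrial protein, by 2.91, and ICOSLG, a costimulatory ligand, by 2.87. VDR showed no response at 1 h (−0.06). Cell cycle, reference and mitochondrially encoded genes had 0 calls of 22, 14 and 13 tested, with medians of −0.12, 0.00 and 0.00. The share over all genes tested was 1.70% upward and 0.488% downward. Of 17 tested glucocorticoid receptor (GR) targets, 3 fell (DUSP1, PER1 and PDK4) and 0 rose. The calls of PER1 and PDK4 (−1.04 and −1.37) did not hold without single libraries. PER1 was −0.85 without IL-1β at 2 h number 1 and −0.98 without NS at 1 h number 4, and PDK4 had adjusted p-values of 0.0578 to 0.107 without 8 of the 16 libraries in turn. In all, 430 different genes of the 29 lists were tested, and 73 rose and 31 fell.

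The later course of the classes was taken from the libraries at 6, 12 and 24 h. They entered the difference through the shared estimate of the spread and through the filter on low values, which was taken over all 78 libraries. With the libraries of the contrast alone in the fit, under the same filter, 222 of the 226 and 61 of the 65 calls were kept. In that fit 20 genes were newly called. At 6 h IL-1β raised 695 genes and lowered 641 (5.21% and 4.81% of genes tested). Of the 226 second-wave genes, 174 were raised at 6 h, 132 at 12 h and 115 at 24 h, and 0 were lowered at any of these times. The background at 12 and 24 h was 3.65% and 3.76% raised. The 49 that had been raised at 1 h kept a median response of 3.78 at 6 h and 2.77 at 24 h, and the 177 that had not kept 1.69 at 6 h and 0.86 at 24 h. Of the 22 first-wave genes, 3 were raised at 6 h, 2 at 12 h and 2 at 24 h, with medians of 0.58, 0.53 and 0.57. EGR1, FOS and DUSP1 were at 0.03, −0.21 and 0.27 at 6 h. Of the 31 genes lowered at 2 h without a call at 1 h, 12 were lowered at 6 h and 5 at 24 h, and the background was 4.81% at 6 h and 4.31% at 24 h. Of the 57 genes raised at both times with no call in the difference, 37 were raised at 6 h, 28 at 12 h and 29 at 24 h. The filter on low values bears on these counts. 57 of the 226 second-wave genes, against 362 of the 13327 genes tested, reached 1 TPM in 3 libraries only through cells given IL-1β.

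**Figure D3:**
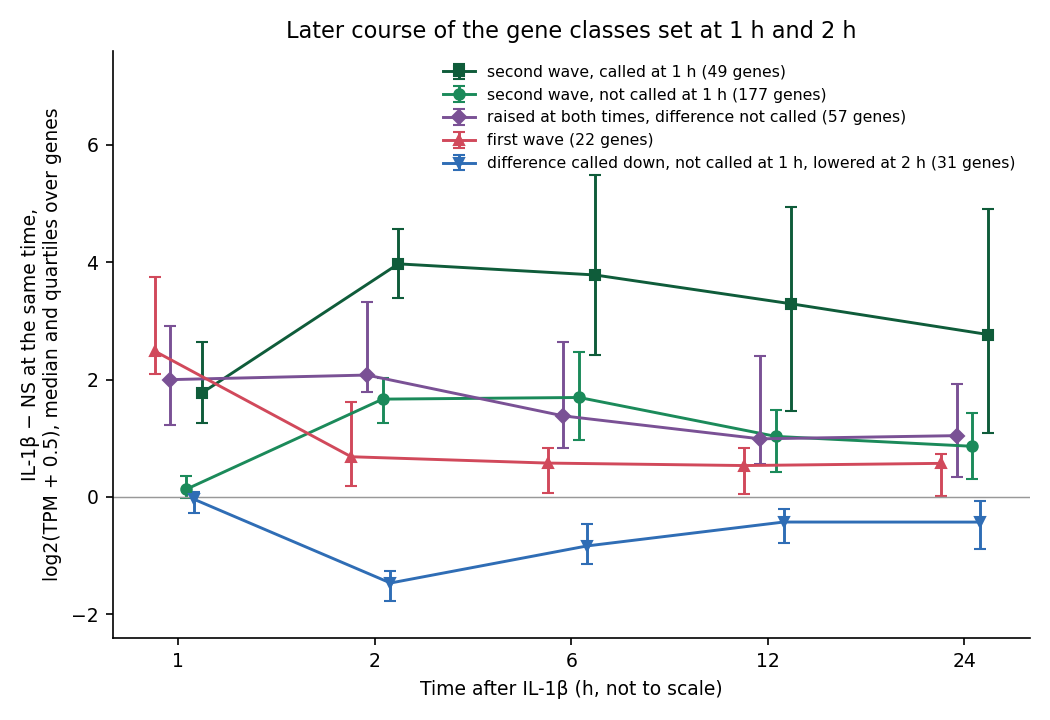
Response to IL-1β (IL-1β minus NS at the same time, log2(TPM + 0.5)) at 1, 2, 6, 12 and 24 h for 5 classes of genes set by their calls at 1 and 2 h; points are medians over genes and whiskers quartiles. The second-wave classes hold medians of 3.78 and 1.69 at 6 h, while the first wave lies at 0.58 and the genes lowered at 2 h at −0.83.

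Gene length differed between the classes. The canonical GENCODE transcript of the 22 first-wave genes spanned a median of 4.29 kb (quartiles 3.14 and 7.83 kb), and 17 of the 22 spanned under 10 kb. Over all 13189 genes with a value the median was 27.4 kb (quartiles 10.9 and 66.8 kb), and 23.1% spanned under 10 kb. The second wave divided by its 1 h call. The 49 genes already raised at 1 h had a median of 8.42 kb, and the 177 not called at 1 h one of 34.9 kb, with 27 under 10 kb. The 57 genes raised at both times without a called difference had a median of 6.36 kb, and the 31 lowered at 2 h one of 11.7 kb. Single genes show the range. EGR1, DUSP1, JUN and NFKBIA span 3.83, 3.10, 3.26 and 3.24 kb, whereas NFKB1 and IRAK2 span 116 and 78.8 kb. The separation was not complete, since second-wave CCL2 and G0S2 span 1.92 and 0.979 kb. In 3′ untranslated regions the pentamer ATTTA, the core of AU-rich elements, had a median density of 2.75 per kb in the first wave and 2.89 per kb in the genes raised at both times, against 1.71 per kb over all genes. It was 2.39 per kb in second-wave genes raised at 1 h and 1.48 per kb in those not called at 1 h. These are descriptions of the classes, and no test was made over genes.

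**Figure D4:**
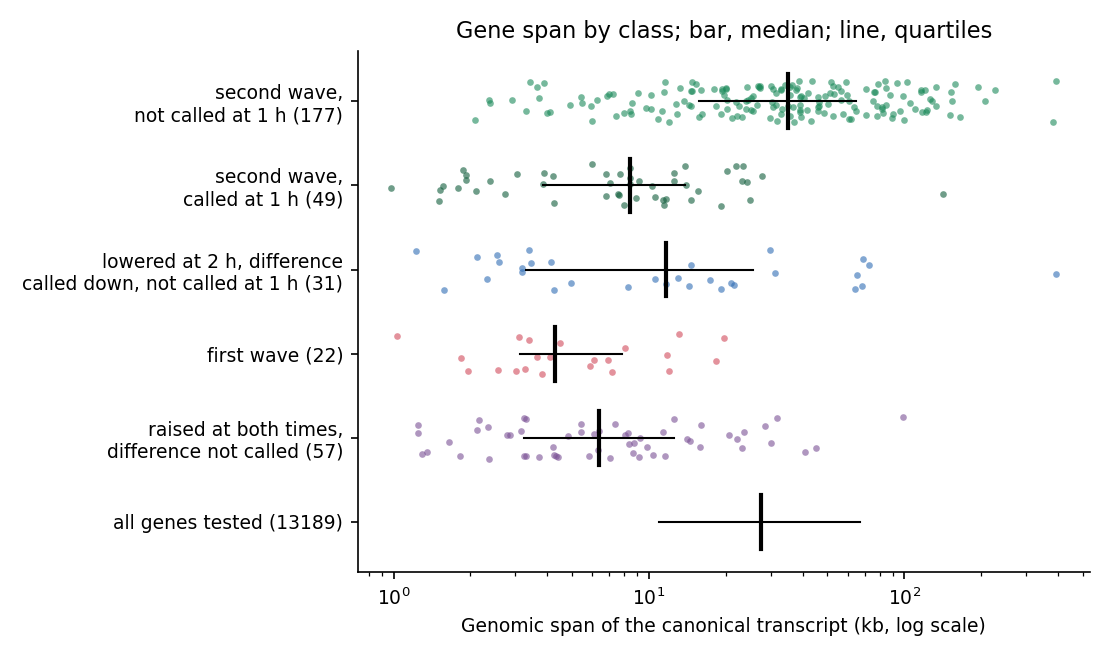
Genomic span of the canonical transcript (kb, log scale) for each gene (points) of 5 classes and, as quartiles only, for all 13189 genes with a value; the bar is the median and the line joins the quartiles. First-wave genes center on 4.29 kb and second-wave genes not called at 1 h on 34.9 kb.

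Promoter windows in the RefSeq table could be matched for 18 of the 22 first-wave genes. Of these, 8 (44.4%) held the TATA box, 3 (16.7%) the cAMP response element, 1 (5.56%) a CArG box, 2 (11.1%) the NF-κB motif and 1 (5.56%) the AP-1 motif, beside the shares in all windows given above. Among the 10573 of 13327 tested genes with a window, the shares were 5.34% for the TATA box, 2.92% for the cAMP response element, 0.936% for the CArG box, 12.2% for the NF-κB motif and 3.83% for the AP-1 motif. For the second wave only 165 of 226 genes, and for the genes raised at both times 39 of 57, had a window. Fewer than 80% of their members thus had a value, so the comparison of motif shares in those classes is void. The 10573 of 13327 tested genes with a window also fell just under 80%, so their shares are a rough background.

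The same difference was measured in the presence of budesonide in 16 other libraries, IL-1β-plus-budesonide at 2 h and budesonide at 2 h against IL-1β-plus-budesonide at 1 h and budesonide at 1 h. These share no library with the comparison above. There, 197 genes rose and 49 fell (1.48% and 0.368% of genes tested). Of the second-wave genes, 134 of 226 (59.3%) rose with budesonide, which is 68.0% of the genes that did so, and of the genes called downward 34 of 65 (52.3%) fell with budesonide, 69.4% of the genes that did so. The sign was shared by 224 of 226 and 64 of 65, with no count over all genes tested to set beside it. Of the 226, 57 reached 1 TPM in 3 libraries only through cells given IL-1β, and they were not left out here. The 3 exceptions in sign, CD69, CRABP2 and MFNG, are named after their values were seen. The rise was smaller with budesonide for 185 of the 226 genes, and the fall was smaller for 54 of the 65. These genes were chosen by their size without budesonide. An effect of that choice cannot be told apart from one of budesonide in these 2 counts. Across all 13327 genes, which share base composition and level between the libraries and are not independent, Pearson's r was 0.656 and Spearman's rho 0.557. Budesonide at 2 h number 3 and IL-1β-plus-budesonide at 1 h number 4 stood apart from their groups (distance 0.311 and 0.290, against at most 0.168 in the other 14), and without them 158 genes rose and 64 fell.

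**Figure D5:**
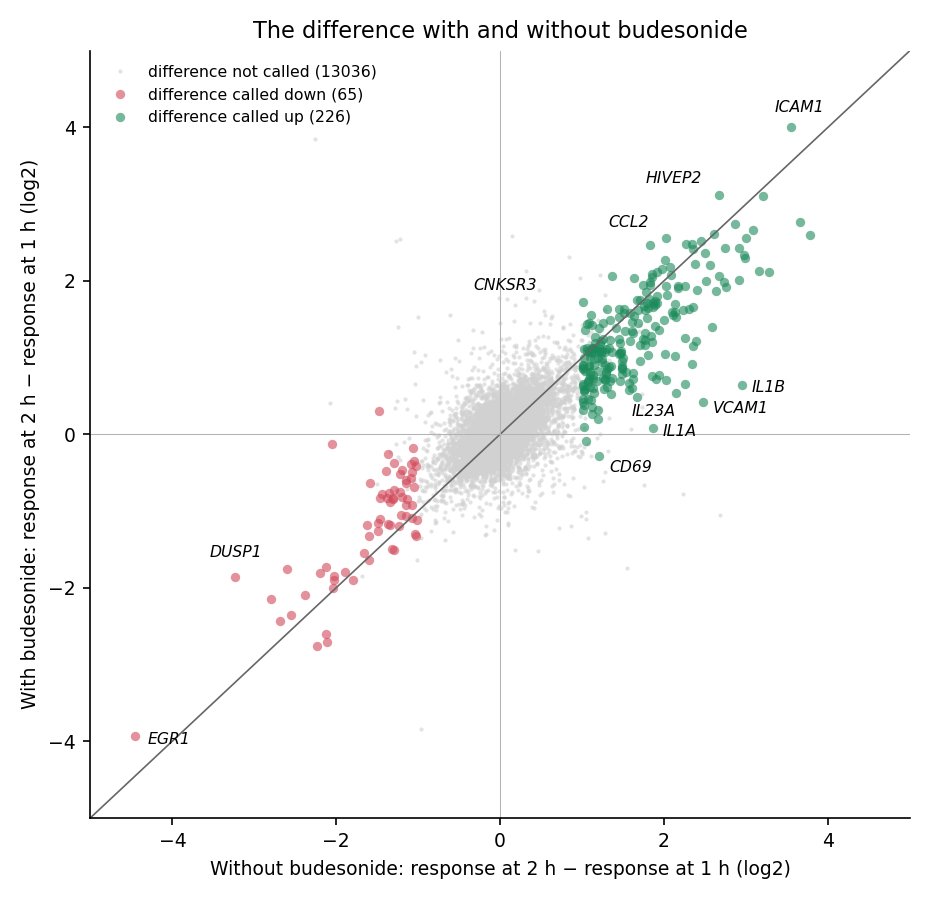
Difference between the IL-1β responses at 2 h and 1 h with budesonide (vertical axis) against the same difference without budesonide (horizontal axis), both log2, for 13327 genes; the line marks equal values. Of the 226 genes called upward without budesonide 224 lie above 0 with it, and IL1B, VCAM1, IL1A, IL23A and CD69 lie well under the line.

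The difference itself changed with budesonide for 10 genes, 4 upward and 6 downward (0.0300% and 0.0450% of genes tested), with 355 genes at an unadjusted p under 0.05 in limma. With the replicate number as a block there were 9 and 7. With a pseudocount of 0.1 only 2 upward calls (CNKSR3 and DUSP1) and 1 downward call (VCAM1) were kept, and IL1B and IL1A had adjusted p-values of 0.0571 and 1.00. IL1B, VCAM1, IL1A, IL23A and CD69 had smaller differences with budesonide than without. For IL1B mRNA the difference was 0.65 with budesonide and 2.95 without (change −2.30 ± 0.44 SE, adjusted p = 0.00454). It was at 1.84, 1.14, 1.67 and 2.81 TPM in IL-1β-plus-budesonide cells at 2 h and 0.982, 0.692, 0.774 and 0.925 TPM in IL-1β-plus-budesonide cells at 1 h, which did not overlap but lay closer together than without budesonide. VCAM1 differed by 0.42 with budesonide and 2.48 without (change −2.06 ± 0.26 SE, adjusted p = 5.46e-07) and IL1A by 0.08 with and 1.87 without (change −1.79, adjusted p = 0.00468). DUSP1, a direct GR target, fell less with budesonide, by 1.86, than without, by 3.24 (change 1.38 ± 0.24 SE, adjusted p = 0.00132). It was at 147, 127, 118 and 121 TPM in IL-1β-plus-budesonide cells at 2 h and 177, 169, 178 and 188 TPM in budesonide cells at 2 h. The response of DUSP1 at 2 h was thus negative with budesonide, as it was without. The smaller fall therefore came with a smaller response at 1 h over budesonide cells, and not with a response kept at 2 h. CNKSR3, a scaffold protein known as a target of aldosterone in the kidney, was at 25.2, 24.0, 21.5 and 18.9 TPM in IL-1β-plus-budesonide cells at 2 h and at most 7.00 TPM in budesonide cells at 2 h, and 4.79, 4.42, 3.89 and 3.62 TPM in IL-1β-plus-budesonide cells at 1 h (difference 1.68 with budesonide and 0.18 without, adjusted p of the change = 6.02e-05). NANOS1 (1.37) and SLAMF8 (1.20) changed the same way as CNKSR3, and HS3ST3B1 (−1.17), which modifies heparan sulfate, the other way. Of the 10 genes, 6 reached 1 TPM in 3 libraries only through cells given IL-1β. IL23A (change −1.62, adjusted p = 0.0490) and NANOS1 (adjusted p = 0.0309) were not called without the 2 libraries that stood apart, where both had an adjusted p of 0.0824, and IL23A also lost its call without most single libraries and NANOS1 without many. SLAMF8, at most 1.34 TPM in any of the 32 libraries, was not called without IL-1β-plus-budesonide at 2 h number 2 (0.99) or budesonide at 1 h number 2 (adjusted p = 0.0539).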

How the data were processed

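Messenger RNA of A549 cells was measured by stranded poly(A) RNA-seq in 78 libraries. The deposited signal values are gene-level TPM, which the authors made with kallisto against the GRCh38 transcriptome and rescaled between libraries with sleuth (versions not given in the sources used here). A second deposited table holds the authors' own fold changes and p-values and was not used, and 1 library of the TPM table that the labels do not list was left out. Since TPM keeps no read counts, no count model was run, and the depth of each library is not given in the sources used here beyond an approximate read number for all samples.

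Genes with at least 1 TPM in 3 libraries (13327 of 19652) were fitted as log2(TPM + 0.5) with limma 3.58.1 in R 4.3.3, with a mean for each treatment and time, an intensity trend and 58 residual degrees of freedom over the 78 libraries. Fold changes on this scale understate the change of low genes. The difference was the contrast (IL-1β at 2 h − NS at 2 h) − (IL-1β at 1 h − NS at 1 h), with Benjamini-Hochberg adjustment over all genes tested. A call needed an adjusted p of at most 0.05 and an absolute log2 value of at least 1. Code was tested on simulated data. By rule, the named genes were 27 well-known IL-1β-responsive genes, the 15 called genes with the largest difference in each direction that averaged 5 TPM in a group, up to 4 called genes of each list, and up to 5 in each direction in the change with budesonide and in that of NS cells. Other genes named as list members or examples were picked after their values were seen. Members and lists were chosen with earlier results of these data known.

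Libraries with the same replicate number deviated together (r of 0.114 to 0.479 in 24 pairs, against −0.256 to 0.116 in 72 others), so the numbers pair the libraries, and a fit with the number as a block was an alternative. Other alternatives were the pseudocount, the filter, 2 scalings, the trend, the libraries in the fit and leaving out each library. Spans and 3′ untranslated regions came from GENCODE 44 and promoters from RefSeq. The ATTTA count was added after seeing the data.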

Additional observations from a re-analysis of the deposited data

Results flagged for a closer look

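The IL-1β response differed between 2 h and 1 h by a test of the difference itself for 226 genes upward and 65 downward (limma). The difference with budesonide minus that without it passed the same test for 10 genes. It was −2.30 for IL1B, −2.06 for VCAM1, −1.79 for IL1A, −1.62 for IL23A, −1.50 for CD69 and −1.17 for HS3ST3B1, and 1.5 for CNKSR3, 1.38 for DUSP1, 1.37 for NANOS1 and 1.20 for SLAMF8. With a pseudocount of 0.1 only VCAM1, CNKSR3 and DUSP1 kept their calls.

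Single libraries stood apart from the other 3 of their group in 7 of 200 groups of 4 examined over 50 genes, where chance flags about 5% of groups. CCL20 was at 608 TPM in IL-1β at 2 h number 4, and FOSB at 41.4 TPM in IL-1β at 1 h number 4. NFKB1 was at 12.5 TPM in NS at 2 h number 1 and UBD at 0.165 TPM in NS at 2 h number 3. JUN was at 9.91 TPM in NS at 1 h number 4. CSF3 was at 0.0512 TPM in NS at 2 h number 3 and at 0.105 TPM in NS at 1 h number 3, where the other NS libraries were listed at 0.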

How the results depend on the processing

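The difference called 226 genes upward and 65 downward, and 204 to 236 upward and 55 to 74 downward when 1 library was left out. With a mean of 5 TPM or more, where fewer genes were tested, 128 rose in the difference, 226 at 2 h, 139 with time in IL-1β cells and 102 in the difference with budesonide, and the change with budesonide gave 2 upward and 0 downward. With a pseudocount of 0.1, 3 genes were lowered at 1 h, 113 at 2 h and 1 with time in NS cells, and the change with budesonide gave 2 upward and 1 downward. With a pseudocount of 1, 0 were lowered at 1 h. With only the libraries of the contrast, 3 were lowered at 1 h and 0 rose with time in NS cells. With the replicate block, the difference called 245 and 73, 3 genes rose with time in NS cells and the change with budesonide called 9 upward. All 226 and 65 were kept under the block, and of the named genes only CCL20 gained a call in the difference.

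Leaving out 1 library gave 0 to 3 genes lowered at 1 h, and 0 to 2 raised and 0 to 1 lowered with time in NS cells. The difference of CXCL2 (0.11) ranged from −0.024 to 0.35 and that of CYP1B1 (−0.19) from −0.40 to 0.060, neither called. With a pseudocount of 0.1 the change with budesonide was not called for CD69, HS3ST3B1, IL1A, IL1B, IL23A, NANOS1 and SLAMF8. With only the libraries of the contrast it was not called for DUSP1 and SLAMF8, and 5 of the 6 downward calls were kept. Over 109 results on single genes, 2720 of 2843 values kept direction and call, 119 lost the call, 2 gained it and 2 changed sign. The cause was not tested. Read counts per library were not at hand, so the counting error, which is largest for low genes, was not estimated.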
